A study of Mus musculus with 10 samples.

Results

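Nodose neurons that carried a red Trpv1 lineage label were compared with nodose neurons that lacked it, across all genes, in 4 of the 10 pools of the series. The pools were chosen by their labels alone. Both groups came from Trpv1-tdTomato mice, made by crossing mice with Cre recombinase at the Trpv1 gene to the reporter line Gt(ROSA)26Sortm14(CAG-tdTomato)Hze, in which Cre switches on the red protein tdTomato. The 2 Trpv1+ nodose pools held 30 red neurons each and the 2 Trpv1- nodose pools held 15 neurons without red signal each. All of them were picked by hand from the caudal, nodose end of the dissociated jugular/nodose complex of the same 2 mice, and the age of the mice was not given in the sources used here. The label marks any cell in which the Trpv1 gene has ever driven Cre, so it follows lineage and not present expression. The labels do not say which mouse gave which pool, so the p-values below measure the spread between pools only. Pool size went together with the groups, and the effect of group cannot be told apart from that of the number of cells.

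Nodose neurons are the placode-derived sensory neurons of the vagus nerve and carry signals from the airways, heart and gut to the brainstem. Thin unmyelinated C-fibers respond to irritants through channels such as TRPV1, the receptor of capsaicin and noxious heat, and many of them release neuropeptides. Faster myelinated A-fibers in the same nerve detect stretch and touch, and are known for large neurofilaments, fast potassium channels and the mechanically gated channel PIEZO2. The comparison asks which genes separate the lineage of the first kind from the remaining nodose neurons.

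Total counts lay between 148452506 and 158148782 per pool, and 3 counts corresponded to at most 0.0202 CPM in any of the pools. CPM is the count scaled to a common depth, here by DESeq2's size factor of the pool, and a fold change comes from edgeR after TMM normalization. The 8 markers of sensory neurons summed to 17260 and 17630 CPM in the Trpv1+ pools and to 15090 and 13800 CPM in the Trpv1- pools. With plain totals they summed to 15920 and 16630 CPM against 18390 and 17640 CPM, so the direction turned with the scaling. Of the 8, 3 did not overlap with Trpv1+ higher, and 1 was apart with Trpv1- higher by the rule given below. Tubb3, a neuronal tubulin and 1 of these markers, overlapped at 3835 and 3358 CPM in the Trpv1+ pools and 3425 and 3592 CPM in the Trpv1- pools. The 6 markers of placodal nodose neurons summed to 2298 and 2555 CPM against 1265 and 1553 CPM (exact permutation p = 0.33). All 6 had a positive log2 fold change. Of these, 2 (33.3%), Tbx3 and P2rx2, were apart with Trpv1+ higher by the rule given below, against 8.94% of all genes tested. With plain totals in place of size factors and TMM, 3 were positive, 3 were negative and 2 were apart with Trpv1+ higher. Hoxb5 overlapped at 442 and 384 CPM against 313 and 413 CPM. Of the 6 markers of jugular neurons, which come from the neural crest, only Runx1 and Tac1 had enough counts to be tested, and the summed level of all 6 was 29.4 and 16.4 CPM against 23.6 and 11.0 CPM. The 16 markers of satellite glia and Schwann cells summed to 4880 and 5095 CPM against 4628 and 3972 CPM (exact permutation p = 0.33, the smallest that 2 against 2 pools allow), and most of that was Apoe. Macrophage markers summed to 6.35 CPM in a single Trpv1+ pool and to at most 0.0363 CPM in the other three, and red blood cell markers had no count in any pool. Endothelial markers summed to 35.0 CPM in the other Trpv1+ pool and to at most 3.13 CPM elsewhere. Fibroblast markers summed to 10.7 and 0.317 CPM against 23.8 and 24.4 CPM, of which Col3a1, a fibrillar collagen, gave 0.189 and 0 CPM against 16.1 and 19.3 CPM. Rn45s, the row that takes up ribosomal RNA reads, held 10.3% and 8.54% of the counts in the Trpv1+ pools and 3.12% and 2.87% in the Trpv1- pools. The part of these values in the differences below was not tested.

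The genes that passed the test were few and all were higher in the Trpv1+ pools. A call took 3 things together: the quasi-likelihood test of edgeR with a Benjamini-Hochberg adjusted p no higher than 0.1, a fold change of 2 or more, and 10 CPM or more in both pools of a group (the level rule). Of 11386 genes tested, 6 were called higher in Trpv1+ (0.0527%) and 0 were called higher in Trpv1- (0%). At an unadjusted p under 0.05 the same test held 516 genes higher in Trpv1+ and 748 higher in Trpv1-, and DESeq2 called 91 (0.799%) and 299 (2.63%) under the same thresholds. No call was left when any of the 4 pools was taken out. The 6 called genes were Trpv1, Uts2b, Calca, Efcab6, Tmem176b and Rn45s.

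Trpv1 itself separated the groups as their labels state. It read 276 and 166 CPM in the Trpv1+ pools and 0.0467 and 0.0422 CPM, from 9 and 8 counts, in the Trpv1- pools. The log2 fold change was 12.20 with a standard error of 0.93 (edgeR adjusted p = 0.07). The gene lies on chr11:73234292-73261242 of GRCm38 on the plus strand. Since the red label depends on Cre driven from this gene, its difference checks the labels and is not a finding.

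Uts2b, which encodes the urotensin-related peptide URP, read 344 and 532 CPM in the Trpv1+ pools against 0.0934 and 0.0527 CPM in the Trpv1- pools. Its log2 fold change was 12.48 with a standard error of 0.72 (edgeR adjusted p = 0.05). Calca, the gene of calcitonin gene-related peptide, a classical vasodilator peptide of nociceptors, read 316 and 513 CPM against 0.898 and 1.10 CPM. Its log2 fold change was 8.64 with a standard error of 0.58 (edgeR adjusted p = 0.05). For both genes each Trpv1+ pool stood far above each Trpv1- pool. Uts2b lies on chr16:27353322-27370239 and Calca on chr7:114631478-114636357 of GRCm38, both on the minus strand.

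The 250 bases before the RefSeq start of the Trpv1, Uts2b and Calca genes are shown because these were the called genes of the sensory channel and peptide families, and a reader can compare how unlike their start regions are. The build is GRCm38.p6, each run is written 5′ to 3′ on the strand of its gene, and no annotated exon falls inside any of them. Capitals mark the letters of 4 motifs searched on both strands, namely TATAAA for the TATA box, CCAAT for the box named after its letters, GGGCGG for the GC box and TGACGTCA for the cAMP response element.
Trpv1, chr11:73233899-73234148, plus strand: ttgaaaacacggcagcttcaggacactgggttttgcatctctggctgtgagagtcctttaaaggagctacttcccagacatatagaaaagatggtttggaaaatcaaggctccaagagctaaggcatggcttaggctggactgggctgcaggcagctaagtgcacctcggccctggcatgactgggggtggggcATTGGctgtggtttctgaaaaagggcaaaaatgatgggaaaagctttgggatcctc
Uts2b, chr16:27370240-27370489, minus strand: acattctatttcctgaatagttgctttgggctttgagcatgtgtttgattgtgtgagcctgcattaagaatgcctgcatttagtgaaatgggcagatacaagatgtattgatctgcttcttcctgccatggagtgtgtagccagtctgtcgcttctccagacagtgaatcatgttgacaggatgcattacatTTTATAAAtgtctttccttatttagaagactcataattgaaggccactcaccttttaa
Calca, chr7:114636358-114636607, minus strand: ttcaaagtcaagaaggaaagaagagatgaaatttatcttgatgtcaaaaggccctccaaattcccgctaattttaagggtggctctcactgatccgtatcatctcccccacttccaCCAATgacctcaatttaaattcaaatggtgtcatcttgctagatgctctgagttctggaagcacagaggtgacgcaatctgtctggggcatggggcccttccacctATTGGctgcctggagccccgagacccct
The Trpv1 window held a CCAAT box on the opposite strand, from 56 to 52 bases before the start. The Uts2b window held TATAAA from 56 to 51 bases before the start and again on the opposite strand from 58 to 53, and these matches overlap. The Calca window held CCAAT 134 bases before the start and on the opposite strand 28 bases before it. Of 32536 different windows of this length in RefSeq, 12.3% held TATAAA, 33.8% held CCAAT, 33.0% held GGGCGG and 1.56% held TGACGTCA. Such matches describe the letters only.

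Efcab6, which encodes a protein with EF-hand calcium-binding motifs, read 224 and 280 CPM in the Trpv1+ pools against 0.0311 and 0.0527 CPM in the Trpv1- pools. Its log2 fold change was 12.47 with a standard error of 0.86 (edgeR adjusted p = 0.05). Tmem176b, a membrane protein, was measured in every pool, at 1319 and 1277 CPM against 73.2 and 75.2 CPM, a log2 fold change of 4.07 with a standard error of 0.24 (edgeR adjusted p = 0.05). Its neighbor Tmem176a read 423 and 727 CPM against 15.9 and 12.04 CPM and was not called (log2 fold change 5.30, edgeR adjusted p = 0.133). Tmem176a and Tmem176b lie head to head on chromosome 6 and overlap between 48840919 and 48841496, and the library kit does not mark strand, so reads from the shared bases cannot be told apart. For Rn45s the log2 fold change was 2.02 with a standard error of 0.13 (edgeR adjusted p = 0.05), and the row has no entry in the GENCODE annotation.

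**Figure D1:**
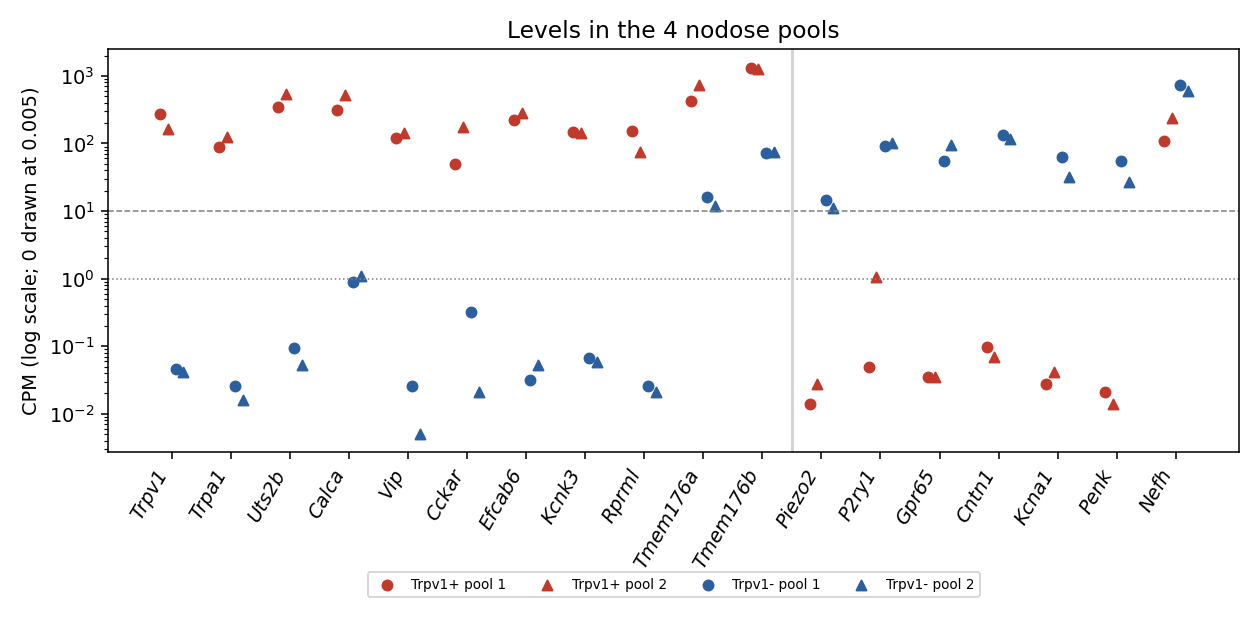
CPM of named genes (log axis) in the 2 Trpv1+ pools (red) and the 2 Trpv1- pools (blue), with circles for pool 1 and triangles for pool 2; a value of 0 is drawn at 0.005. The dashed line marks 10 CPM and the dotted line 1 CPM, and the groups do not overlap for any gene shown, with Trpv1 at 276 and 166 CPM against 0.0467 and 0.0422 CPM.

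Beyond the called genes the comparison was described by counts. The groups were counted as apart for a gene when they did not overlap, the fitted fold change was at least 2, and both pools of the higher group had at least 10 CPM. By this rule 1018 genes (8.94% of those tested) were higher in Trpv1+ and 1144 (10%) in Trpv1-. Only genes at the level rule could be apart, and among those 6463 genes the shares were 15.8% and 17.7%. A list whose members pass the level rule more often than genes at large therefore has a higher share to be set against. A stricter count asked for under 1 CPM in both pools of the lower group, and held 61 genes (0.536%) for Trpv1+ and 217 (1.91%) for Trpv1-. Pools of the same group also differed by this measure. Of 8027 genes with at least 10 CPM in a Trpv1+ pool, 1870 (23.3%) had under 1 CPM in the other Trpv1+ pool, and in the Trpv1- pools these were 1346 of 8654 genes (15.6%). Over the 15300 genes with a count in any of the 4 pools, log2(CPM + 1) correlated across genes at r = 0.738 between the Trpv1+ pools, 0.787 between the Trpv1- pools and 0.73 to 0.749 between pools of different groups. By this measure the Trpv1+ pools were no more alike than pools of different groups. The chi-square per degree of freedom of the raw counts was 2585 between the Trpv1+ pools and 2081 between the Trpv1- pools. It was 3006 to 3584 between pools of different groups, so by that measure pools of a group were more alike. With plain totals in place of size factors and TMM, the median of all genes tested moved from 0.015 to -0.35 on the log2 scale, and the genes apart became 610 and 1622.

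Among channels of the nociceptor TRP list, Trpa1, the receptor of mustard oil and other reactive irritants, stood apart together with Trpv1. It read 89.5 and 124 CPM in the Trpv1+ pools and 0.0260 and 0.0158 CPM in the Trpv1- pools. The log2 fold change was 12.21 with a standard error of 1.47, and it passed in DESeq2 (adjusted p = 4.13e-12) but not in edgeR (adjusted p = 0.342). Trpv2, a channel of larger sensory neurons, overlapped between the groups at 90.8 and 68.9 CPM against 79.9 and 95.8 CPM. Of 10 TRP genes tested, 4 (40%) were apart with Trpv1+ higher and 0 with Trpv1- higher, against 8.94% and 10% over all genes tested. The 4 include Trpv1, whose difference only checks the labels. Trpm8, the cold receptor, had at most 4 counts in any pool.

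Channels that respond to mechanical force and acid went both ways. Piezo2, the main touch channel of sensory neurons, read 0.0140 and 0.0276 CPM in the Trpv1+ pools and 14.5 and 10.9 CPM in the Trpv1- pools. The log2 fold change was -9.26 with a standard error of 2.71, past the threshold in DESeq2 (adjusted p = 2.29e-07) and not in edgeR (adjusted p = 0.366). Kcnk4, which encodes the stretch-sensitive potassium channel TRAAK, read 0.0140 and 0.0552 CPM against 28.5 and 35.1 CPM (DESeq2 adjusted p = 1.1e-07). Its relative Kcnk2, the gene of TREK-1, stood apart in the opposite direction at 158 and 78.0 CPM against 9.75 and 43.0 CPM (edgeR adjusted p = 0.605). Of 11 genes tested in the list, 1 (9.09%) was apart with Trpv1+ higher and 3 (27.3%) with Trpv1- higher, against 8.94% and 10% over all genes tested. At the level rule were 8 of the 11, and all genes there were apart at 15.8% and 17.7%. The list median of the log2 fold change was -1.11, and it was -0.12 without the first Trpv1- pool. The summed level of the list was 283 and 267 CPM against 258 and 249 CPM, and with plain totals it was 261 and 252 CPM against 314 and 318 CPM, so its direction turned with the scaling.

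Peptide genes were the pathway list with the largest share of tested members apart. Of 16 tested, 10 (62.5%) were apart with Trpv1+ higher and 4 (25%) with Trpv1- higher, against 8.94% and 10% over all genes tested. Of the 16, 15 passed the level rule, and all genes at that rule were apart at 15.8% and 17.7%. The list median of the log2 fold change was 1.27, and edgeR called Calca and Uts2b. Vip, the gene of vasoactive intestinal peptide, read 122 and 142 CPM in the Trpv1+ pools and 0.0260 and 0 CPM in the Trpv1- pools (DESeq2 adjusted p = 3.12e-08, edgeR adjusted p = 0.366). Calcb, the second calcitonin gene-related peptide gene, read 176 and 174 CPM against 0.721 and 11.3 CPM (log2 fold change 4.79, DESeq2 adjusted p = 0.0523). Cartpt, whose peptide acts in satiety, read 1237 and 903 CPM against 228 and 233 CPM (log2 fold change 2.16, edgeR adjusted p = 0.348). Scg2, a granin that is cut into secretoneurin, read 1064 and 1911 CPM against 214 and 219 CPM (log2 fold change 2.72, edgeR adjusted p = 0.348). Cartpt and Scg2 were thus well measured in both groups, while Vip, Calca and Uts2b were near absent from the Trpv1- pools. Adcyap1, which encodes PACAP, read 320 and 173 CPM against 106 and 76.4 CPM and was not called.

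A smaller set of peptides showed the reverse pattern. Penk, the enkephalin precursor, read 0.0210 and 0.0138 CPM in the Trpv1+ pools and 54.4 and 27.2 CPM in the Trpv1- pools (DESeq2 adjusted p = 1.99e-09). Sst, the somatostatin gene, read 0.0210 and 0.00690 CPM against 32.1 and 19.3 CPM (DESeq2 adjusted p = 3.62e-08). Both missed the threshold in edgeR at an adjusted p of 0.366. Penk had 0 CPM in both pools of capsaicin-responsive nodose neurons, and so did Sst. Those pools had lower depth, and 37.05% of all genes tested read under 1 CPM in both of them. The share was 55.8% for the 217 genes of the strict count with Trpv1- higher and 52.5% for the 61 with Trpv1+ higher.

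Genes known from myelinated A-fibers were lower in the Trpv1+ pools for nearly the whole list. Of 29 tested, 27 had a negative log2 fold change (5642 of 11386 over all genes tested), and the median was -1.95. There were 11 (37.9%) apart with Trpv1- higher and 0 with Trpv1+ higher, against 10% and 8.94% over all genes tested. The level rule was passed by 21 of the 29, and all genes at that rule were apart at 17.7% and 15.8%. With plain totals 28 were negative, the median was -2.31 and 15 were apart. Taking out single pools left the median between -2.01 and -1.54. edgeR called none of them, and DESeq2 called 6, all with Trpv1- higher. Nefh, the heavy neurofilament, read 107 and 237 CPM against 722 and 604 CPM (log2 fold change -2.01 with a standard error of 0.45, edgeR adjusted p = 0.366). Nefm, the medium neurofilament, read 645 and 527 CPM against 1190 and 1124 CPM (log2 fold change -1.04 with a standard error of 0.21). Nefl, the light chain, read 1036 and 1485 CPM against 2239 and 2537 CPM (log2 fold change -0.98), under the 2-fold limit. The neurofilament genes were thus measured in both groups, and their pools did not overlap.

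Other members of the A-fiber list were close to absent from the Trpv1+ pools. Kcna1, a fast potassium channel subunit of myelinated axons, read 0.0281 and 0.0414 CPM against 62.2 and 31.8 CPM (DESeq2 adjusted p = 3.64e-09). Ntrk3, the receptor of neurotrophin-3, had no count in either Trpv1+ pool and read 21.2 and 20.2 CPM in the Trpv1- pools, which is at least 1979-fold higher against 3 counts over both Trpv1+ pools. Scn8a, the sodium channel of nodes of Ranvier, read 0.0912 and 4.26 CPM against 39.3 and 119 CPM. Kcna2, which pairs with the Kcna1 channel, was present in all pools at 18.5 and 36.4 CPM against 92.2 and 111 CPM (log2 fold change -1.95, edgeR adjusted p = 0.516). Pcp4 and Etv1, also on the list, overlapped between groups, with Etv1 at 258 and 201 CPM against 200 and 252 CPM.

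The C-fiber list was less uniform. Of 22 tested, 16 had a positive log2 fold change (5737 of 11386 over all genes tested), and the median was 0.79. The groups were apart for 6 genes (27.3%) with Trpv1+ higher and 0 with Trpv1- higher, against 8.94% and 10% over all genes tested. At the level rule were 17 of the 22, and all genes there were apart at 15.8% and 17.7%. edgeR called Calca and Trpv1. The 6 include Trpv1, whose difference only checks the labels. With plain totals the median was 0.44 and the genes apart were 5 and 1, and without the first Trpv1- pool the median was 0.53. Fxyd2, a regulator of the sodium pump, read 2350 and 1810 CPM against 708 and 594 CPM (log2 fold change 1.62 with a standard error of 0.22, edgeR adjusted p = 0.366). Prph, the intermediate filament peripherin, read 4846 and 4981 CPM against 4420 and 3843 CPM. The sodium channel genes Scn9a and Scn10a, which encode NaV1.7 and NaV1.8, overlapped between the groups, with Scn9a at 189 and 469 CPM against 218 and 156 CPM for a log2 fold change of 0.75 that was -0.01 without the second Trpv1+ pool. P2rx3, the ATP-gated channel of visceral sensory neurons, read 106 and 287 CPM against 298 and 353 CPM (log2 fold change -0.79, edgeR adjusted p = 0.756). These genes named for C-fibers were therefore measured in the Trpv1- pools as well.

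**Figure D2:**
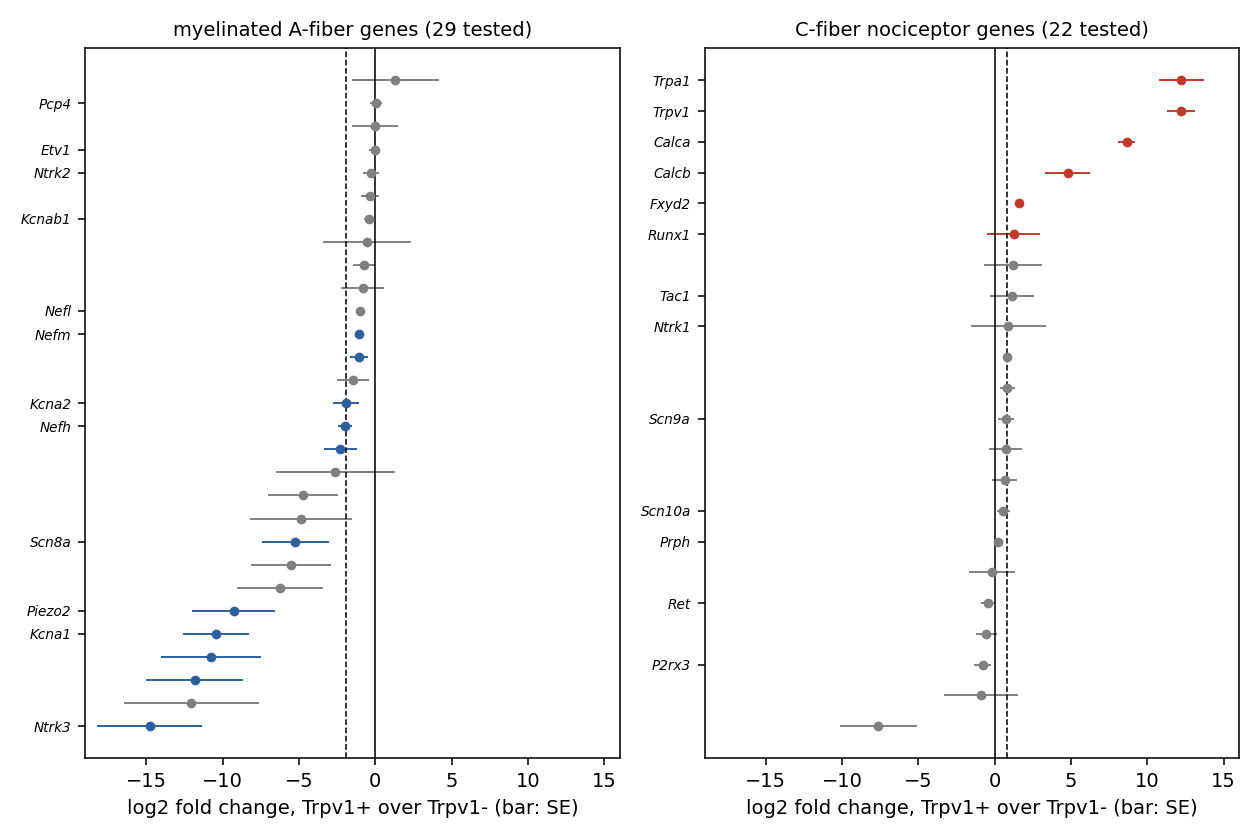
Log2 fold change (Trpv1+ over Trpv1-, bars give the standard error) of each tested gene of the myelinated A-fiber list (left, 29 genes) and the C-fiber nociceptor list (right, 22 genes). Red and blue points are genes whose groups were apart, gray points were not, and the dashed lines are the list medians of -1.95 and 0.79, with names given for some of the genes; the value of Ntrk3, with no count in Trpv1+, depends on the prior count of the fit.

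Sodium and potassium channel genes that were apart were mostly higher in the Trpv1- pools. Of 13 sodium channel subunits tested, 0 were apart with Trpv1+ higher and 4 (30.8%) with Trpv1- higher, against 8.94% and 10% over all genes tested. At the level rule were 10 of the 13, and all genes there were apart at 15.8% and 17.7%. Scn7a, a sodium-sensing channel, read 117 and 28.1 CPM against 232 and 167 CPM (log2 fold change -1.51, edgeR adjusted p = 0.641). Of 41 potassium channel subunits tested, 3 (7.32%) were apart with Trpv1+ higher and 8 (19.5%) with Trpv1- higher. Kcnk3, the acid-sensitive leak channel TASK-1, was the clearest exception at 146 and 141 CPM against 0.0675 and 0.0580 CPM (log2 fold change 11.08 with a standard error of 1.12, edgeR adjusted p = 0.213, DESeq2 adjusted p = 9.98e-12). Kcnk1, the leak channel TWIK-1, showed the opposite, at 0.0210 and 0.0207 CPM against 102 and 33.7 CPM (DESeq2 adjusted p = 5.65e-10). Leak channels of the same family were thus near absent from one group, Kcnk3 from Trpv1- and Kcnk1 and Kcnk4 from Trpv1+. Among 12 calcium channel subunits 1 was apart, Cacna1b of the N-type channel, at 120 and 70.5 CPM against 31.0 and 15.5 CPM.

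Receptors of ATP and other transmitters differed by subunit. P2ry1, a G-protein-coupled ADP receptor, read 0.0491 and 1.07 CPM in the Trpv1+ pools and 93.1 and 103 CPM in the Trpv1- pools. The log2 fold change was -7.52 with a standard error of 1.99 (DESeq2 adjusted p = 0.00116, edgeR adjusted p = 0.366). P2rx2, the partner of P2rx3 in the ATP channel of nodose neurons, read 485 and 343 CPM against 82.5 and 197 CPM (log2 fold change 1.51, edgeR adjusted p = 0.395). Of 28 ligand-gated channel genes 7 (25%) were apart with Trpv1+ higher and 2 (7.14%) with Trpv1- higher, against 8.94% and 10% over all genes tested. The nicotinic subunit Chrna3 read 255 and 313 CPM against 89.5 and 45.04 CPM (log2 fold change 2.02, edgeR adjusted p = 0.366), and its neighbor in the genome Chrnb4 read 66.3 and 183 CPM against 7.15 and 24.2 CPM. Another nicotinic subunit, Chrnb3, was at 1.09 and 25.1 CPM against 184 and 131 CPM (log2 fold change -3.65, edgeR adjusted p = 0.48). The serotonin-gated channel gene Htr3a was high in all pools, at 963 and 1322 CPM against 575 and 710 CPM.

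Receptors of gut hormones and of inflammatory mediators were mostly at low counts. Cckar, the cholecystokinin receptor of satiety, read 49.5 and 174 CPM in the Trpv1+ pools and 0.322 and 0.0211 CPM in the Trpv1- pools (log2 fold change 9.28, DESeq2 adjusted p = 2.07e-05, edgeR adjusted p = 0.366). Gpr65, a proton-sensing receptor that marks vagal neurons of the intestinal villi, read 0.0351 and 0.0345 CPM against 54.8 and 94.4 CPM (log2 fold change -11.10, DESeq2 adjusted p = 1.86e-10, edgeR adjusted p = 0.366). Of 25 genes in this list 8 could be tested, and these 2 were the only ones apart. That is 1 gene (12.5%) in each direction, against 8.94% and 10% over all genes tested. Among 29 of 64 inflammatory mediator receptors that could be tested, 2 (6.90%) were apart with Trpv1+ higher and 1 (3.45%) with Trpv1- higher. Both shares lay below those over all genes tested, and neither test called any of these receptors. F2r, the thrombin receptor PAR1, read 368 and 536 CPM against 109 and 92.6 CPM (log2 fold change 2.11 with a standard error of 0.36, edgeR adjusted p = 0.366).

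Transcription factors of sensory fate were more often apart with Trpv1- higher. Of 35 tested, 3 (8.57%) were apart with Trpv1+ higher and 10 (28.6%) with Trpv1- higher, against 8.94% and 10% over all genes tested. At the level rule were 25 of the 35, and all genes there were apart at 15.8% and 17.7%. The list had a median level of 18.4 CPM. Genes at the level rule of 5 to 30 CPM were also more often apart with Trpv1- higher (676 against 301). DESeq2 called 5 of the list, all higher in Trpv1-. Tbx3, a T-box factor, read 243 and 173 CPM in the Trpv1+ pools and 27.6 and 40.6 CPM in the Trpv1- pools (log2 fold change 2.55, edgeR adjusted p = 0.366). Onecut2 read 1.82 and 1.24 CPM against 29.96 and 66.0 CPM (log2 fold change -5.03, DESeq2 adjusted p = 0.00642). Ebf3 read 0.0491 and 0.0828 CPM against 31.7 and 11.1 CPM (DESeq2 adjusted p = 2.27e-06), and Casz1 read 2.57 and 0.0276 CPM against 43.5 and 72.3 CPM. None of 7 tested Hox genes was apart.

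Genes of axon guidance and adhesion were more often apart with Trpv1- higher, and those of vesicle release went both ways. Of 55 axon guidance and adhesion genes tested, 3 (5.45%) were apart with Trpv1+ higher and 12 (21.8%) with Trpv1- higher, against 8.94% and 10% over all genes tested. The list median was -1.02, and it was -0.30 without the first Trpv1- pool. Cntn1, a contactin at the paranodes of myelinated axons, read 0.0982 and 0.0690 CPM against 134 and 116 CPM (log2 fold change -10.59 with a standard error of 1.20, edgeR adjusted p = 0.308, DESeq2 adjusted p = 1.53e-10). Robo2, a guidance receptor of Slit proteins, read 10.6 and 18.2 CPM against 101 and 187 CPM (log2 fold change -3.39, edgeR adjusted p = 0.366). Nrxn3, a presynaptic neurexin, read 0.0912 and 0.104 CPM against 43.6 and 73.3 CPM (DESeq2 adjusted p = 2.65e-08). In the release machinery, 37 genes were tested and 4 were apart with Trpv1+ higher, among them the vesicle GTPases Rab3c and Rab3b. Rab3c read 495 and 378 CPM against 23.5 and 40.8 CPM (log2 fold change 3.70 with a standard error of 0.48, edgeR adjusted p = 0.366, DESeq2 adjusted p = 0.0506). Another 7 members were apart in the other direction, among them Sv2b, a synaptic vesicle protein, at 0.0210 and 0.00690 CPM against 13.5 and 43.6 CPM, and Rph3a, a Rab3 effector, at 0.715 and 0.883 CPM against 17.1 and 22.6 CPM. The exocytosis gene Snap25 overlapped between groups at 1203 and 1806 CPM against 2173 and 1782 CPM.

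**Figure D3:**
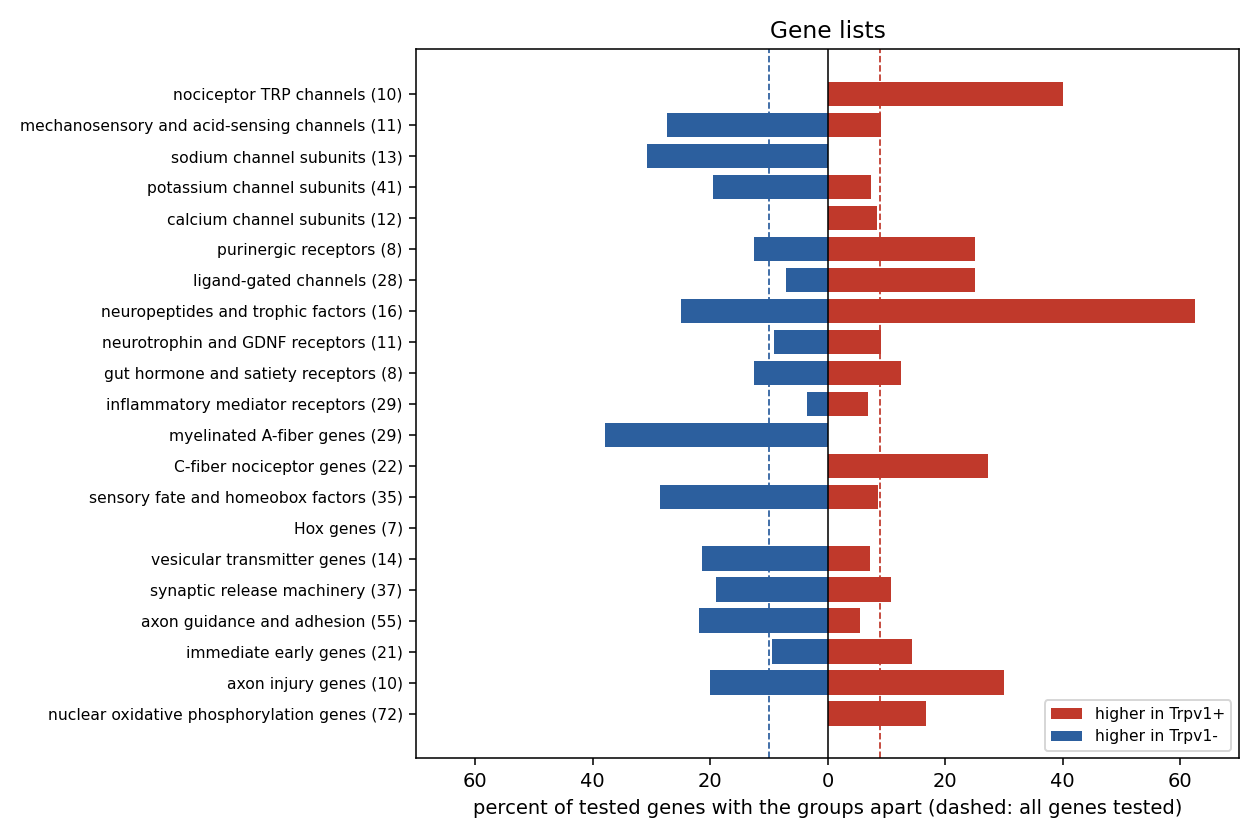
Percent of tested genes of each list (number tested in parentheses) whose groups were apart, with Trpv1+ higher to the right in red and Trpv1- higher to the left in blue. Dashed lines give the shares over all 11386 genes tested, 8.94% and 10%, and among genes at the level rule the shares were 15.8% and 17.7%. The peptide list reaches 62.5% on the right while the A-fiber list reaches 37.9% on the left.

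The genes nearest to the threshold without a call named a mixed set. Toward Trpv1+, beside Kcnk3, Trpa1, Cartpt and Tmem176a, these were Gnas, the stimulatory G-protein subunit, and Rprml. Gnas read 7436 and 7126 CPM against 3293 and 2871 CPM (log2 fold change 1.18 with a standard error of 0.12, edgeR adjusted p = 0.224). Rprml read 153 and 74.6 CPM against 0.0260 and 0.0211 CPM (edgeR adjusted p = 0.342). Toward Trpv1-, beside Cntn1, Gpr65 and Kcnk1, they were Cpne6, Ndfip2, Dync2h1, Erc1, Git1, Atp2b2, Sec24b, Dolpp1 and Wdr33. Cpne6, a copine that binds calcium and membranes, read 0.309 and 0.145 CPM against 104 and 134 CPM (log2 fold change -9.09, edgeR adjusted p = 0.366). Ndfip2, an adaptor of Nedd4 ubiquitin ligases, read 31.8 and 32.9 CPM against 261 and 291 CPM (log2 fold change -3.15 with a standard error of 0.45, edgeR adjusted p = 0.366). Erc1, an active-zone scaffold, read 2.097 and 1.77 CPM against 125 and 116 CPM (log2 fold change -6.02, DESeq2 adjusted p = 0.000236). Ndfip2 was present in every pool, while the other 8 of this group of 9 read at most 2.097 CPM in a Trpv1+ pool.

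Genes of oxidative phosphorylation, which encode the respiratory chain and ATP synthase, leaned toward Trpv1+ as a group with small differences each. Of 72 nuclear genes tested, 69 had a positive log2 fold change, the median was 0.72, 57 did not overlap between groups with Trpv1+ higher, and 12 were apart in that direction. Over all genes tested 2258 of 11386 did not overlap with Trpv1+ higher, and among genes at the level rule 1755 of 6463. A positive log2 fold change was found for 3514 of those 6463 genes. All 72 genes passed the level rule. The 12 apart were 16.7% of them, near the 15.8% of all genes at the level rule. The 71 genes with a known exon length had a median level of 597 CPM. edgeR and DESeq2 called none of the 72 genes. Cycs, cytochrome c, read 1929 and 2017 CPM against 1094 and 916 CPM (log2 fold change 0.92 with a standard error of 0.18, edgeR adjusted p = 0.366). Cox4i1 read 2421 and 2760 CPM against 1824 and 1345 CPM (log2 fold change 0.65), and Atp5b read 2387 and 2354 CPM against 1870 and 1544 CPM (log2 fold change 0.42). With plain totals 61 genes were positive, the median was 0.36, and 0 genes were apart.

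Exon length moved with the same difference. Genes at the level rule were put in 5 classes of equal size by exon length. The shortest class, with up to 1869 exon bases, had a median log2 fold change of 0.59, and the longest, from 5927 bases, had -0.26. The 71 oxidative phosphorylation genes with a length had a median of 1231 bases, 51 of them were in the shortest class, and 55 lay above the median of the class they belonged to. The A-fiber genes had a median of 5782 bases, and 3 of 29 lay above the median of their class. The axon guidance and adhesion genes had a median of 7558 bases. Of these 55 genes, 40 were in the longest class and 22 lay above the median of their class. The peptide genes had a median of 1636 bases, and 12 of 16 lay above that of theirs. The part of length in these differences was not tested.

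**Figure D4:**
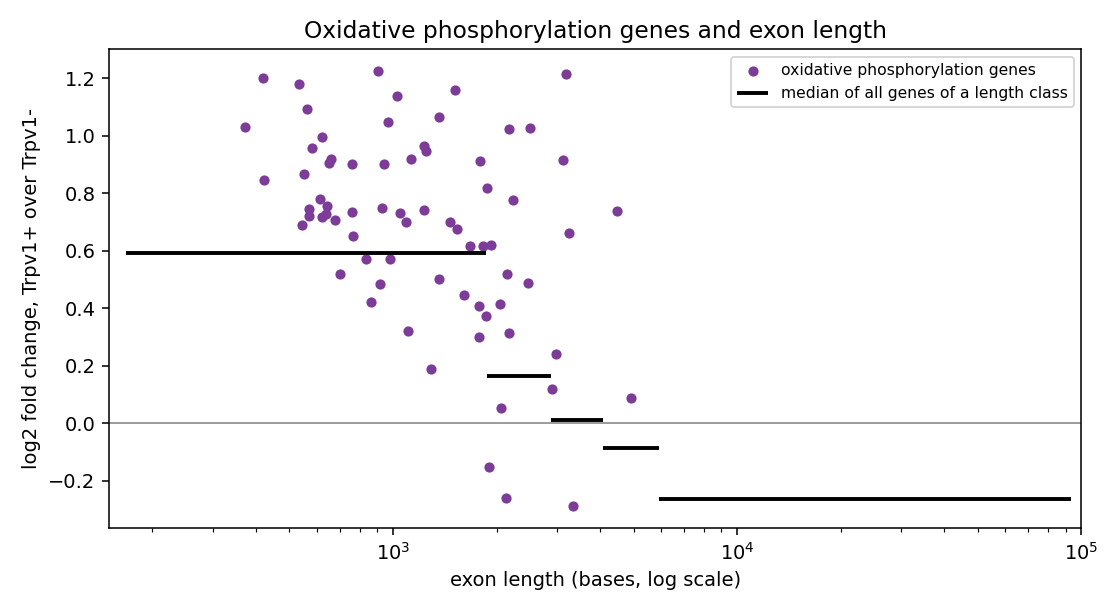
Log2 fold change (Trpv1+ over Trpv1-) of 71 nuclear oxidative phosphorylation genes against exon length in bases (log axis), with black bars for the median of all genes at the level rule in each of 5 length classes. The bars fall from 0.59 in the shortest class to -0.26 in the longest, and 55 of the 71 points lie above the bar of their class.

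The named genes were then read in nodose neurons picked by another method. The capsaicin selection used wild-type mice and a calcium assay. Its nodose neurons had responded both to α,β-methylene-ATP, an agonist of ATP-gated channels, and to capsaicin. They were pooled as 14 and 15 cells and processed at another sequencing core at lower depth. These circumstances cannot be told apart from the selection, so the values, on a CPM scale over all 10 pools, are a description. Of the 6 called genes, 5 had at least 10 CPM in both capsaicin-selected nodose pools. The 5 include Trpv1, the gene of the capsaicin receptor, whose level there only checks the selection. They also include Rn45s, which held 0.137% and 0.0143% of the counts there, less than in the Trpv1- pools. Trpv1 read 213 and 248 CPM there, Uts2b 133 and 102 CPM, Tmem176b 520 and 787 CPM and Efcab6 28.4 and 129 CPM. Calca read 119 CPM in the first pool and 2.34 CPM in the second. Trpa1 was at 0.125 and 538 CPM, so the pools of this selection stood far apart. Vip read 138 and 470 CPM and Cckar 1787 and 703 CPM. Toward Trpv1-, Gpr65, Kcnk1, Atp2b2, Wdr33 and P2ry1 had 0 CPM in both capsaicin pools, and Piezo2 read 0.0417 and 0.234 CPM. Of all genes tested, 37.05% read under 1 CPM in both of those pools. Cntn1 did not follow its level in the Trpv1+ pools, at 92.1 and 393 CPM, and neither did Ndfip2, at 52.0 and 377 CPM.

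The capsaicin-selected pools were also read for larger sets. Of the 61 genes with at least 10 CPM in both Trpv1+ pools and under 1 CPM in both Trpv1- pools, 10 (16.4%) had at least 10 CPM in both capsaicin-selected nodose pools and 32 (52.5%) had under 1 CPM in both. Of the 217 genes of the reverse pattern these were 19 (8.76%) and 121 (55.8%). Among all 6463 genes at the level rule these were 2672 (41.3%) and 1237 (19.1%). In Trpv1+ neurons of the jugular ganglion, Calca read 2921 and 3022 CPM and Piezo2 44.1 and 79.9 CPM, whereas Uts2b had at most 0.0388 CPM and Efcab6 at most 0.0302 CPM.

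**Figure D5:**
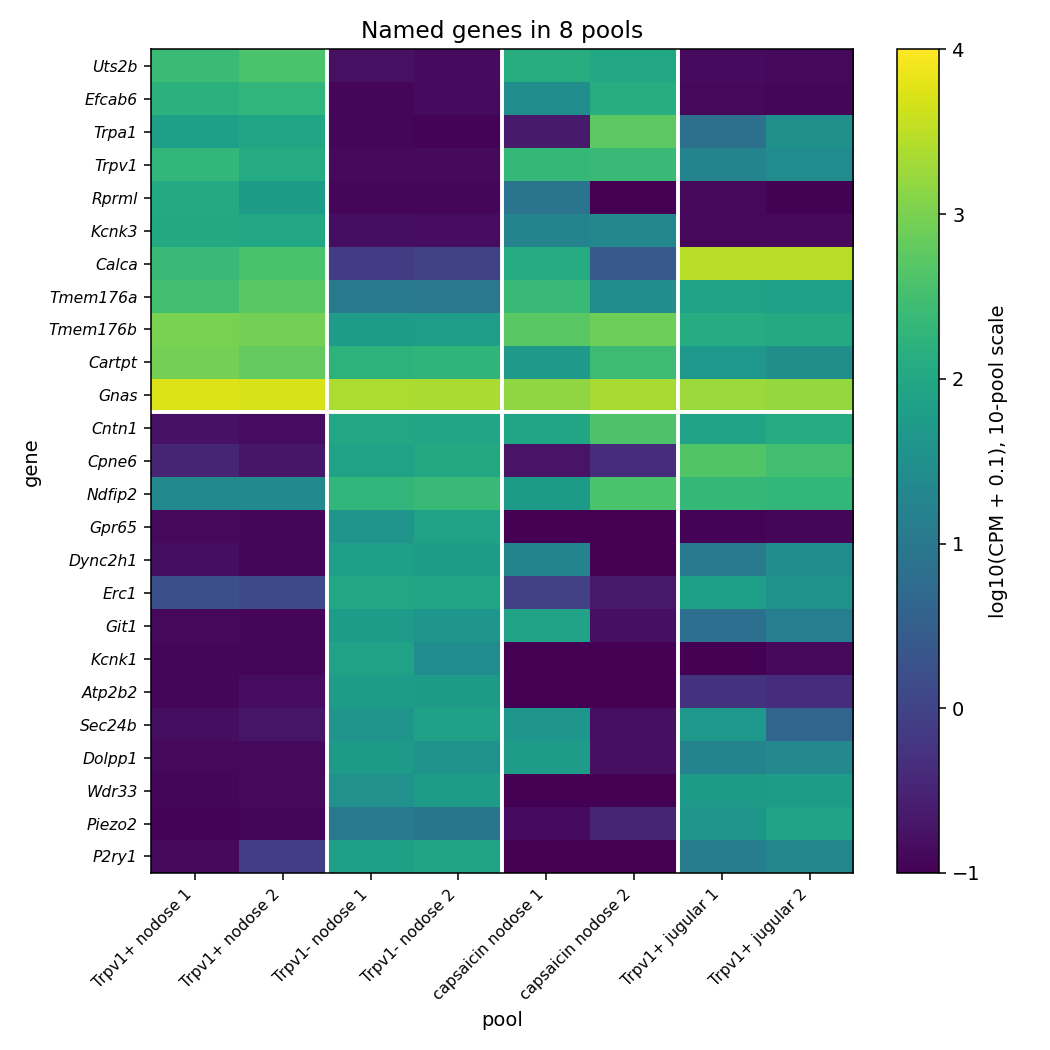
Level of named genes (rows; the upper 11 were higher in Trpv1+, the lower 14 in Trpv1-) as log10(CPM + 0.1) on a scale over all 10 pools, in the 4 compared nodose pools, the 2 capsaicin-selected nodose pools and the 2 Trpv1+ jugular pools. Uts2b and Efcab6 were high in the capsaicin-selected nodose pools and near absent from the jugular pools, where Calca reached 2921 and 3022 CPM.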

How the data were processed

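Pools of hand-picked neurons were copied to cDNA with the SMARTer Ultra Low Input kit, which does not mark strand, and sequenced. The authors deposited raw counts per gene, 1 table per pool, made with TopHat2 2.0.9 and Bowtie2 2.1.0.0 on mm10 and with HTSeq, whose annotation is not given in the sources used here. Each table had 24421 rows, of which 27 carry month-like names and 0 name no gene.

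Pools were grouped by their labels, and all genes were tested on the counts of the 4 compared pools with edgeR 4.0.16 (TMM, filterByExpr, estimateDisp, glmQLFit and glmQLFTest; R 4.3.3) and Benjamini-Hochberg adjustment over 11386 genes. The standard error is the size of the log2 fold change over the square root of F. DESeq2 1.42.0, which the authors used, was an alternative, with adjusted p-values over the 14159 genes it gave one. CPM was the count over DESeq2's size factor, scaled to the geometric mean total. The fitted fold of a gene with few counts in 1 group depends on the prior count. Medians of lists were the same to 3 decimals with genes absent from a group set at 3 counts over its 2 pools. The scripts were tested on simulated counts. Tables and figures were made with Python 3.11.15. Positions and exon lengths come from GENCODE vM21 on GRCm38, and 250-base windows from RefSeq, where 3 of 3 genes matched.

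The members and gene lists were chosen with earlier results of these data known. Genes were named by a rule: Trpv1, Trpa1, Piezo2 and P2ry1; up to 12 genes a direction by call and then by smallest unadjusted p among those with at least 10 CPM and no overlap; from each list the called members and the 4 with the highest mean CPM; markers; and Rn45s. Vip, Calcb, Adcyap1, Penk, Sst, Kcnk4, Kcna1, Kcna2, Ntrk3, Scn8a, Chrnb4, Chrnb3, Onecut2, Ebf3, Casz1, Robo2, Nrxn3, Rab3c, Rab3b, Sv2b, Rph3a and Trpm8 fall outside it and were chosen after their values were seen, and some genes are not reported here. Alternatives were another normalization, test, filter, level rule and depth, a replicate block, a fit of 6 pools, Rn45s left out and each pool left out; plain totals in place of TMM were added after seeing the data.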

Additional observations from a re-analysis of the deposited data

How the results depend on the processing

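The count of called genes, 6 with all of them higher in Trpv1+, stayed within 1.5 times with DESeq2's size factors, without Rn45s and with plain totals. It was also the same without the level rule and after thinning to the smallest total. All 6 genes with an adjusted p no higher than 0.1 already passed the level rule, so leaving it out could not change the count. Totals lay between 148452506 and 158148782, so thinning removed few counts. DESeq2 called 390 genes (91 higher in Trpv1+ and 299 higher in Trpv1-) and shared 5 of the 6, without Rn45s. A fit of 6 pools called 15 (11 and 4) and shared all 6, and no filter on low counts gave 10, all higher in Trpv1+. With the replicate number as a block 1 gene was called, higher in Trpv1+. Pools with the same number did not deviate together (r = -0.00744 over 6463 genes). With 2 pools a group this value cannot show whether pools with the same number came from the same mouse. Leaving out each pool in turn gave 0 to 0 calls in either direction, where the lone pool of a group was assumed to vary like the other group. Of 82 genes whose log2 fold changes were computed under 13 alternatives, 81 kept their direction throughout. Scn9a went from 0.75 to -0.01 without the second Trpv1+ pool (-0.01 to 1.27 over the pools left out). Many of the 82 were named because their groups did not overlap, or after their values were seen. That choice favors a kept direction, so the count does not measure how stable the comparison is. The cause of the gap between edgeR and DESeq2 was not tested. There were 2 pools a group, from shared mice. Absence of a gene was not detectable below 3 counts, and intervals for counting error say nothing of amplification.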

Other observations

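Of 4 sympathetic marker genes tested, 1 was apart with Trpv1+ higher and 2 with Trpv1- higher. The shares over all genes tested were 8.94% and 10%. DESeq2 called 1 of the 4, Dbh. Th, which makes the precursor DOPA, read 159 and 81.7 CPM in the Trpv1+ pools and 47.7 and 50.6 CPM in the Trpv1- pools (log2 fold change 1.23, edgeR adjusted p = 0.676). Dbh, which turns dopamine into noradrenaline, read 0 and 0.0345 CPM against 23.7 and 55.1 CPM (DESeq2 adjusted p = 4.19e-06, edgeR adjusted p = 0.366), and the vesicle transporter Slc18a2 read 10.2 and 2.57 CPM against 24.6 and 33.2 CPM. The noradrenaline transporter Slc6a2, a defining gene of sympathetic neurons, was at or under 1.51 CPM in every pool. Sympathetic markers summed to 169 and 85.7 CPM against 97.6 and 139.9 CPM. Dbh had 0 CPM in both capsaicin-selected nodose pools, where 37.05% of all genes tested read under 1 CPM.

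Genes tied to axon growth and injury were measured in both groups. Gap43, a growth cone protein, read 1504 and 1643 CPM in the Trpv1+ pools and 654 and 813 CPM in the Trpv1- pools (log2 fold change 1.04 with a standard error of 0.20, edgeR adjusted p = 0.366). Atf3, an early marker of axon injury that dissociation can also induce, overlapped at 285 and 419 CPM against 243 and 282 CPM. Among 21 immediate early genes tested, 3 (14.3%) were apart with Trpv1+ higher and 2 (9.52%) with Trpv1- higher, against 8.94% and 10% over all genes tested. The level of a gene also moved with its difference. Genes at the level rule with a mean of 5 to 30 CPM had a median log2 fold change of -0.68, and those of 300 to 1000 CPM had 0.49. In the class of 5 to 30 CPM, 301 genes were apart with Trpv1+ higher and 676 with Trpv1- higher. The potassium channel list had a median level of 21.6 CPM and the axon guidance and adhesion list 14.8 CPM. The part of level in the differences of the lists was not tested.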
